A study of Mus musculus with 4 samples.

Results

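The genes described here encode the proteins of the cytosolic ribosome. They were taken as the protein-coding genes whose mouse symbol starts with Rpl or Rps and a digit, together with Rplp0, Rplp1, Rplp2 and Rpsa. Pseudogenes, the S6 kinases (Rps6k) and Rps19bp1 were left out. The rule found 85 of the 55487 gene identifiers in the files, of which 49 encode large-subunit proteins, 3 the proteins of the large-subunit stalk and 33 small-subunit proteins. Polyadenylated liver RNA was measured in 2 PA and 2 WT female mice, all 11 weeks old, of the FVB strain and fed standard chow. The PA mice are hypomorphic for Pcca and carry the label Pcca-/- with A138T in brackets, whose meaning the labels do not spell out. The product of Pcca is the biotin-bearing subunit of propionyl-CoA carboxylase, which feeds propionyl-CoA into the citric acid cycle in mitochondria. The series title concerns acylation of histone H4 under metabolic perturbation, and the comparison here is PA liver against WT liver.

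A ribosome is built from 2 subunits, each an rRNA core with a set of proteins of which nearly all are present once, so the cell needs the proteins in equal numbers. Most mammalian ribosomal protein mRNAs begin with a C followed by a run of pyrimidines, the 5′ terminal oligopyrimidine (5′TOP) motif, through which mTORC1 and LARP1 control their translation. In liver, where hepatocytes make much of the plasma protein, these mRNAs are among the abundant transcripts, and their levels reflect both synthesis and the long lifetime of 5′TOP mRNAs.

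The 5′TOP motif lies at the start of the mRNA, so 7 start sites are given here. They belong to Rps27 and Rps18, the members of highest level; Rplp2 and Rps28, which are among the members of largest PA against WT difference; Rpl13a, the member of lowest fitted fold; and Rps27rt and Rps27l, a retrogene and a paralogue of Rps27. Each window runs from 10 bases before the start annotated by RefSeq on GRCm38.p6, 30 bases in all, 5′ to 3′ on the strand of the gene. Capitals mark a C within 5 bases of the annotated start with at least 4 further pyrimidines after it.
Rps27 (chr3:90213629-90213658, minus strand): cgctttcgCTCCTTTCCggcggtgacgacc
Rps18 (chr17:33955646-33955675, minus strand): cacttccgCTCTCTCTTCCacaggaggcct
Rplp2 (chr7:141447641-141447670, plus strand): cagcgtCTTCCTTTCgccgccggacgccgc
Rps28 (chr17:33824543-33824572, minus strand): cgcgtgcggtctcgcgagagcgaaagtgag
Rpl13a (chr7:45128726-45128755, minus strand): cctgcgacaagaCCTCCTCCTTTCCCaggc
Rps27rt (chr9:114982720-114982749, minus strand): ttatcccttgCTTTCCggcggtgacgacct
Rps27l (chr9:66946076-66946105, plus strand): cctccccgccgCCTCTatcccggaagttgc

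The windows of Rps27 and Rps27rt share an unbroken run of 19 bases, ctttccggcggtgacgacc, across the pyrimidine run and the bases after it. The Rps28 window has no such run within 5 bases of its annotated start. RefSeq promoter entries were matched for 65 of the 85 genes, with 77 annotated starts between them, and 20 genes had none. A C at the annotated start itself followed by at least 4 pyrimidines stood at 14 of the 77 starts (18.2%), against 823 of 32851 starts in the whole table (2.51%). With 5 bases of slack the run was found at 32 of 77 member starts (41.6%), against 18.3% of all starts. A run of at least 7 pyrimidines after the C was found at 27.3% of member starts and 4.37% of all starts.

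In the promoter windows, 250 bases before to 50 after each start and searched on both strands, CCGGAAG, the core bound by ETS factors such as GABPA, occurred in 27 of 77 member windows (35.1%) and 8.86% of all windows. AAGATGGC, which contains the core recognised by YY1, occurred in 10.4% of member windows and 2.75% of all windows, and these motifs can overlap through the letters AAG. The NRF1-type motif was in 7.79% of member windows and 4.60% of all windows. TATAAA was in 9.09% of member windows and 13.6% of all windows, and CCAAT in 29.9% and 37.4%. These matches describe letters in the windows and were not tested as binding sites. The fitted PA against WT log2 fold change had a median of 0.22 over the 30 tested members with the pyrimidine run near a start and of 0.26 over the 32 tested members with an entry but no run.

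The 4 libraries held 25990553 and 30110400 gene counts in PA replicates 1 and 2 and 29627033 and 25575016 in WT replicates 1 and 2, so that 3 counts correspond to 0.0996 to 0.117 CPM (counts scaled to a fixed library size). CPM here are STAR counts of uniquely mapped reads on the opposite strand, scaled by TMM. Pcca was at 34.2 and 47.4 CPM in the PA libraries and 60.3 and 58.9 CPM in the WT libraries, or -0.55 on the log2 scale (SE 0.22, edgeR adjusted p = 0.398). Over all 14411 genes tested, 38 were higher in PA and 79 lower at an adjusted p under 0.05. PA replicate 1 stood apart in 2 whole-library measures: 13.5% of its reads mapped to several places, against 9.11 to 9.42% in the other libraries, and mitochondrially encoded genes held 13.6% of its gene counts, against 8.98% in PA replicate 2 and 6.90 and 7.38% in WT. The 9 hepatocyte marker genes measured summed to 154116 and 186356 CPM in PA and 168585 and 185764 CPM in WT, and none was at 0. Most of the sum was Alb, and single genes had values in both directions: the log2 fold change was 1.07 for Cps1, -0.79 for Fgb and -0.74 for Serpina1c, each at an unadjusted p under 0.05 and none called. The design text calls the replicates biological. The edgeR p-values set the group difference against a spread estimated from these 4 samples with information shared across genes.

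Ribosomal protein transcripts were abundant. In TPM, which scales a transcript's reads by its length and by the library, 80 of the 85 genes averaged at least 100 TPM over the 4 livers, and 8 averaged at least 1000. The median was 470 TPM, and 31 of the genes were among the 200 genes of highest mean TPM. Among members of at least 100 TPM the highest exceeded the lowest 10.7-fold. Rps27, a small-subunit protein, had the highest mean, with 1464 and 1011 TPM in PA livers and 1448 and 1553 TPM in WT livers, and its groups overlapped. Rps18, a protein of the small-subunit head, followed with 1590 and 1154 TPM in PA and 1331 and 1257 TPM in WT, where one PA liver was above and the other below both WT livers. Rpl41, the shortest of the ribosomal proteins, was at 1510 and 1126 TPM in PA and 1422 and 1180 TPM in WT, again with the WT livers between the PA livers.

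Other genes of high mean TPM were Rpl13a (1295), Rps29 (1064), Rpl10 (1026), Rps24 (1018) and Rps25 (918). Each of these means differed from the next one given by less than the range of either gene over the 4 livers. Rps24 is one of the genes mutated in human Diamond-Blackfan anemia. Rps24 was lower in both PA livers, at 1009 and 843 TPM, than in both WT livers, at 1108 and 1113 TPM. In TPM, 36% of all genes tested were below both WT livers in this way, and in CPM Rps24 was not. At the low end of the expressed members were Rps27rt with a mean of 69.2 TPM, Rpl7l1 with 47.6 TPM, and then only Rpl39l, Rpl3l and Rpl10l, each under 1 TPM. The least variable member was Rpl4, a large-subunit protein, with 488 and 529 TPM in PA and 501 and 493 TPM in WT (coefficient of variation 3.60%). The most variable was Rps28, at 34.8%. Across the 82 members of at least 1 TPM, the log2 mean TPM of PA and of WT correlated with r = 0.966, a description over genes of the same libraries.

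**Figure D1:**
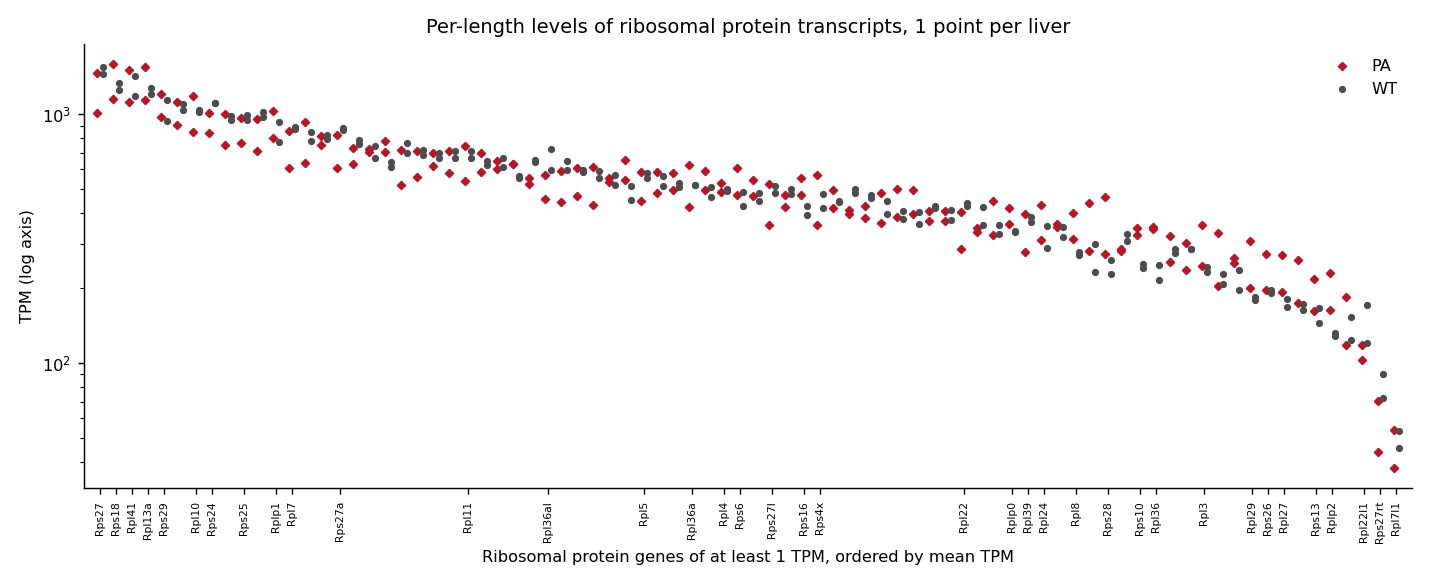
TPM (log axis) of the 82 ribosomal protein genes of at least 1 mean TPM, ordered by their mean, with 1 point per liver, PA (diamonds) left of WT (circles) and names on the axis for genes described in the text. Rps27 stands first at a mean of 1369 TPM and Rpl7l1 last at 47.6 TPM. Both PA points lie above both WT points for 16 genes (19.5%, against 7.67% of all genes tested). They lie below for 17 (20.7%, against 36%).

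No ribosomal protein gene passed the test between PA and WT. Of the 85 genes, 82 had enough counts to be tested, and edgeR's quasi-likelihood test called 0 of them, against 0.812% of all genes tested, with 0 higher (0.264% of all genes) and 0 lower (0.548%), with a smallest adjusted p of 0.142. At an unadjusted p under 0.05 there were 11 members, 10 with higher values in PA (5.88% of all genes tested) and 1 with lower (5.93%). Together they were 13.4% of the members tested, against 11.8% of all genes tested. DESeq2 called 1 member, Rplp2 (adjusted p = 0.0433), and limma-voom none. In direction the members leaned to higher values: 69 of 82 (84.1%) had a log2 fold change above 0, against 50.6% of all genes tested, and their median log2 fold change was 0.24, against 0.0049 for all genes tested. Both PA libraries were above both WT libraries for 31 members (37.8%, against 21.3% of all genes tested) and below both for 1 (21.9% of all genes tested), while the other 50 overlapped. Taken singly, PA replicate 1 was above both WT libraries for 91.5% of members (38.5% of all genes tested). PA replicate 2 was above both for 41.5% (38.0% of all genes tested), so the count of 31 largely follows PA replicate 2. In bulk tissue, fewer cells of a type and less RNA per cell cannot be told apart.

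The stalk proteins recruit the GTPase elongation factors to the ribosome. Rplp2, an acidic phosphoprotein of the stalk, had 62.7 and 70.5 CPM in PA livers and 36.2 and 39.1 CPM in WT livers. Both PA libraries were above both WT libraries, and the 2 libraries of each group lay close together. Its log2 fold change was 0.82 (SE 0.19, edgeR adjusted p = 0.142), the smallest p among the members. Rplp0, the base of the stalk, had 367 and 346 CPM in PA and 258 and 271 CPM in WT, also without overlap. Rplp1, the partner of Rplp2, had 416 and 259 CPM in PA and 285 and 258 CPM in WT, where only PA replicate 1 stood above the WT livers.

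Among the 46 tested large-subunit genes outside the stalk, 38 had higher values in PA (82.6%, against 50.6% of all genes tested). Both PA libraries were above both WT libraries for 18 (39.1%, against 21.3%), and the median log2 fold change was 0.23. Rpl36 had the largest fold of all members, with 99.6 and 73.9 CPM in PA and 50.1 and 46.5 CPM in WT, a mean of 86.8 ± 18.2 CPM in PA and 48.3 ± 2.58 CPM in WT (SD, n = 2 each). The groups did not overlap, and the log2 fold change was 0.84 (SE 0.22, edgeR adjusted p = 0.188). Rpl29, which mice can live without, had 88.7 and 112 CPM in PA and 62.2 and 63.7 CPM in WT (log2 fold change 0.68, SE 0.21). Rpl27 had 75.9 and 84.0 CPM in PA and 47.2 and 54.5 CPM in WT (log2 fold change 0.65, SE 0.20). Both were higher in each PA library than in either WT library, and neither passed the test. Rpl8 was the remaining large-subunit gene with higher values at an unadjusted p under 0.05, with 272 and 274 CPM in PA and 174 and 193 CPM in WT.

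Of the 33 tested small-subunit genes, 28 had higher values in PA (84.8%, against 50.6% of all genes tested). Their median log2 fold change was 0.24, and both PA libraries were above both WT libraries for 11 (33.3%, against 21.3%). Rps28, a small protein near the mRNA exit, had 72.1 and 98.6 CPM in PA and 43.4 and 55.0 CPM in WT (log2 fold change 0.79, SE 0.24, edgeR adjusted p = 0.256). PA replicate 2 was the highest library and the groups did not overlap. Rps13, Rps16 and Rps26 were also at an unadjusted p under 0.05, with log2 fold changes of 0.57, 0.62 and 0.51. Rps6, the small-subunit protein phosphorylated by the S6 kinases and named here after its values were seen, had 193 and 199 CPM in PA and 132 and 153 CPM in WT, without overlap.

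At the other end, 13 members had lower values in PA, and for 12 of them the difference was smaller than its standard error. Rpl22, an RNA-binding large-subunit protein, had 215 and 125 CPM in PA and 177 and 196 CPM in WT (log2 fold change -0.13, SE 0.30). Rps27a, which is made as a fusion with ubiquitin, had 466 and 281 CPM in PA and 371 and 398 CPM in WT (log2 fold change -0.04, SE 0.30). In both genes the WT livers lay between the PA livers. Rpl13a is taken up with the other genes whose counts depend on the counting method.

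**Figure D2:**
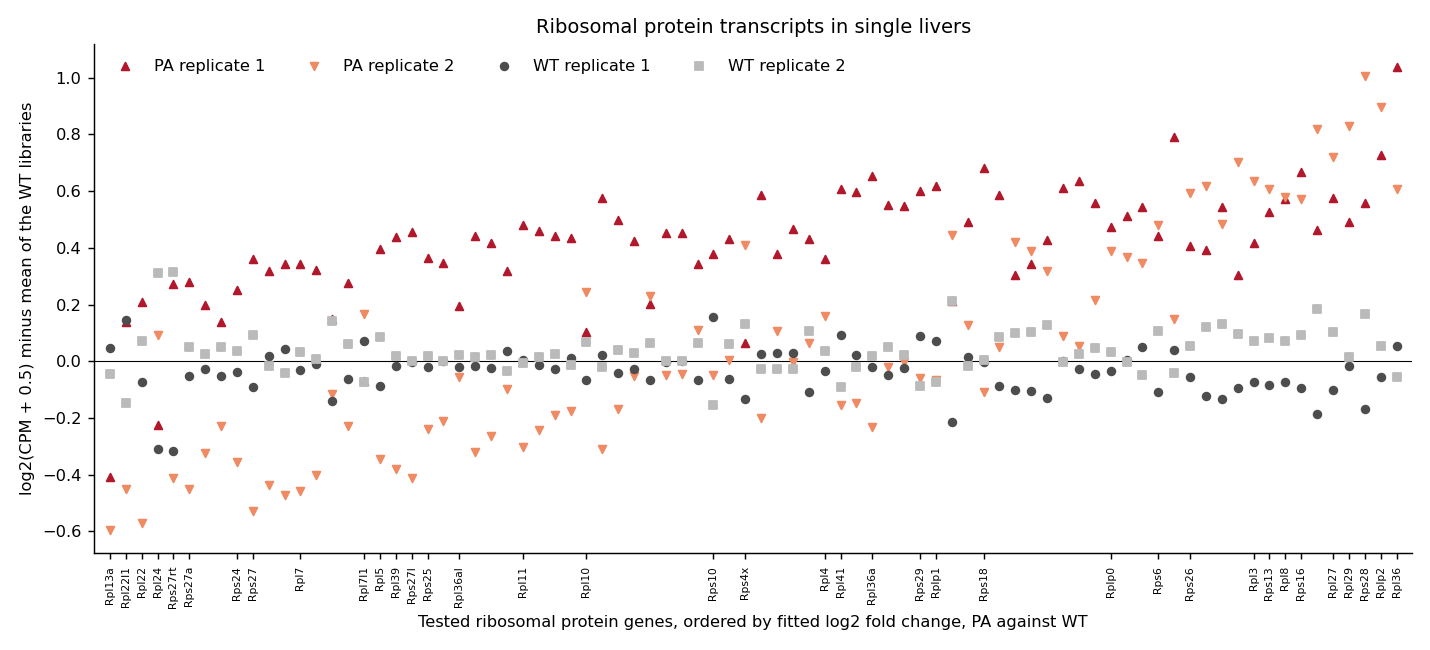
Each of the 82 tested ribosomal protein genes along the horizontal axis, ordered by fitted log2 fold change, with the log2(CPM + 0.5) of each library minus the mean of the WT libraries on the vertical axis and names for genes described in the text. PA replicate 1 (triangles pointing up) lies above 0 for 79 genes, PA replicate 2 (triangles pointing down) for 38.

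The PA livers differed from each other over these genes by more than the WT livers did. The median difference from the WT mean, in log2(CPM + 0.5), was 0.43 for PA replicate 1 and -0.03 for PA replicate 2, whereas the median difference between the WT replicates was 0.06. Over all genes tested the same medians were 0.0032 and -0.0039. PA replicate 1 was above both WT libraries for 75 of 82 members (91.5%, against 38.5% of all genes tested). PA replicate 2 was above both for 34 (41.5%, against 38.0%) and below both for 37 (45.1%, against 39.4%). The median over the members was -0.03 when the fit was made without PA replicate 1, with 40 members higher, and 0.44 without PA replicate 2, with 79 higher and 1 called, Rpl36 (edgeR adjusted p = 0.0289). The lean towards higher values in PA therefore rests on PA replicate 1. Over all genes with at least 20 counts in a pair, not the members alone, the chi-square per degree of freedom was also computed. It was 135 for the PA pair (14164 genes) and 46.3 for the WT pair (14226 genes). PA replicate 1 is also the library of the highest mitochondrial and multimapped shares, and the part of these in the difference was not tested.

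Most members, 62 of 82, were higher in PA replicate 1 than in PA replicate 2. Rps18 had 724 and 418 CPM in PA and 450 and 453 CPM in WT, and Rps27 had 329 and 178 CPM in PA and 241 and 273 CPM in WT. Rpl7, a large-subunit protein, had 800 and 459 CPM in PA and 616 and 644 CPM in WT. In these 3 genes one PA liver was the highest library and the other the lowest. Rpl5 and Rpl11, which form the 5S ribonucleoprotein that can bind Mdm2 and are named after their values were seen, had the same order. Rpl5 had 537 and 321 CPM in PA and 385 and 434 CPM in WT, and Rpl11 had 444 and 258 CPM in PA and 320 and 317 CPM in WT.

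The other 20 members were higher in PA replicate 2, and this division was made after the values were seen and is a description. Both PA libraries were above both WT libraries for 16 of these 20, against 15 of the 62 and 21.3% of all genes tested. The 16 follow from the division itself. PA replicate 1 was above both WT libraries for 16 of the 20, and PA replicate 2 was higher still. The median log2 fold change was 0.51 in the 20, against 0.22 in the 62, and the same choice of genes enters it. Rpl3, which reaches towards the peptidyl transferase centre, had 295 and 344 CPM in PA and 210 and 233 CPM in WT, with both PA livers above both WT livers. Rpl10, which joins the large subunit late in the cytoplasm, had 500 and 551 CPM in PA and 445 and 488 CPM in WT, again without overlap. The 20 and the 62 had similar median GC content of the transcript (51.3% and 51.2%) and similar median length (921 and 926 bases).

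**Figure D3:**
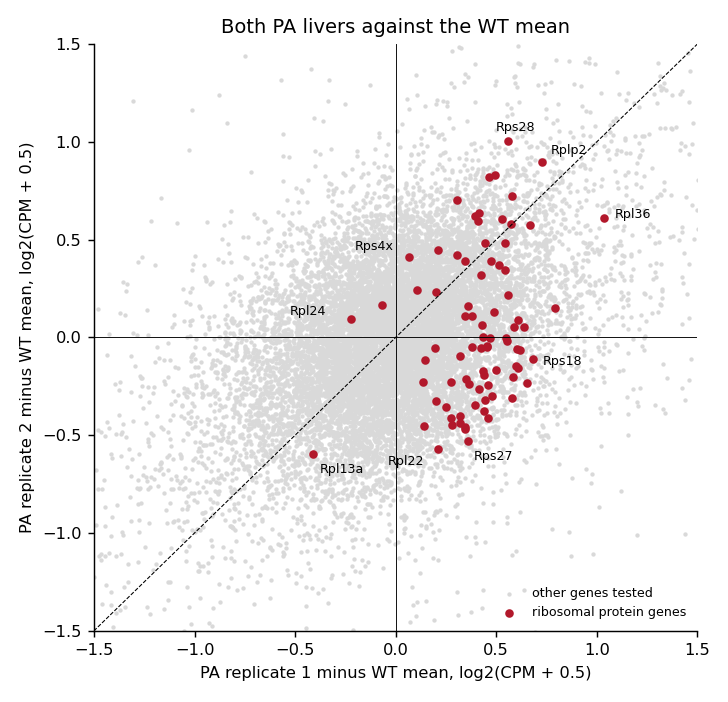
Log2(CPM + 0.5) of PA replicate 1 (horizontal) and of PA replicate 2 (vertical), each minus the mean of the WT libraries, for the ribosomal protein genes (red) and all other genes tested (grey), with the line of equality dashed. The ribosomal protein genes lie almost wholly right of 0 and on both sides of 0 vertically, with medians of 0.43 and -0.03.

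GC content moved with the fold change within the members. Over the 82 tested members, the Spearman correlation between transcript GC content and the log2 fold change was 0.42, against 0.14 over 14396 genes with a value. It was 0.47 for PA replicate 1 and 0.29 for PA replicate 2, each against the WT mean. These are correlations over genes that share 4 libraries, with no test. A fit with offsets for GC content and length, chosen after seeing the data, gave the members a median log2 fold change of 0.18 with 70 of 82 higher and 0 called, against a median of 0.03 for all genes. Rpl36, whose transcript is 60.8% GC, had a log2 fold change of 0.51 in that fit. Members of lower mean TPM had the larger folds (Spearman correlation of mean TPM with log2 fold change -0.37).

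As a share of the library, the members together held 2.28 and 1.72% of gene counts in PA replicates 1 and 2 and 1.75 and 1.76% in WT replicates 1 and 2. PA replicate 1 was the highest and PA replicate 2 the lowest of the 4 libraries. The difference of the means was 0.245 percentage points (exact permutation test, two-sided, p = 1.0; the smallest p this design can give is 0.333). By TPM they held 4.62 and 4.18% in PA and 4.49 and 4.40% in WT, a difference of -0.0465 percentage points (exact permutation test, two-sided, p = 1.0). Mitochondrially encoded genes took 20.7 and 17.1% of TPM in PA and 10.6 and 11.7% in WT. With those genes left out of the total, the members held 5.83 and 5.04% of TPM in PA and 5.02 and 4.98% in WT, a difference of 0.429 percentage points (exact permutation test, two-sided, p = 0.333). Both PA livers were then above both WT livers, PA replicate 2 by a margin smaller than the gap between the WT livers. The large-subunit genes with the stalk held 1.26 and 0.977% of gene counts in PA and 0.971 and 0.981% in WT. The small-subunit genes held 1.02 and 0.743% in PA and 0.777% in both WT livers. PA replicate 1 was the highest library for both subunits, and PA replicate 2 was the lowest for the small subunit and lay between the WT livers for the large.

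On the TPM scale the direction of the members was not the one seen with TMM-scaled counts. Both PA libraries were above both WT libraries in TPM for 16 of the 82 tested members (19.5%, against 7.67% of all genes tested) and below both for 17 (20.7%, against 36% of all genes tested). In a limma fit of log2(TPM + 1), 41 members were higher in PA, and the members' median log2 fold change was -0.0040, where the median of all genes was -0.20, a difference of 0.19 from all genes. The members' median therefore lay above that of all genes on both scales, and its sign depended on the scale.

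**Figure D4:**
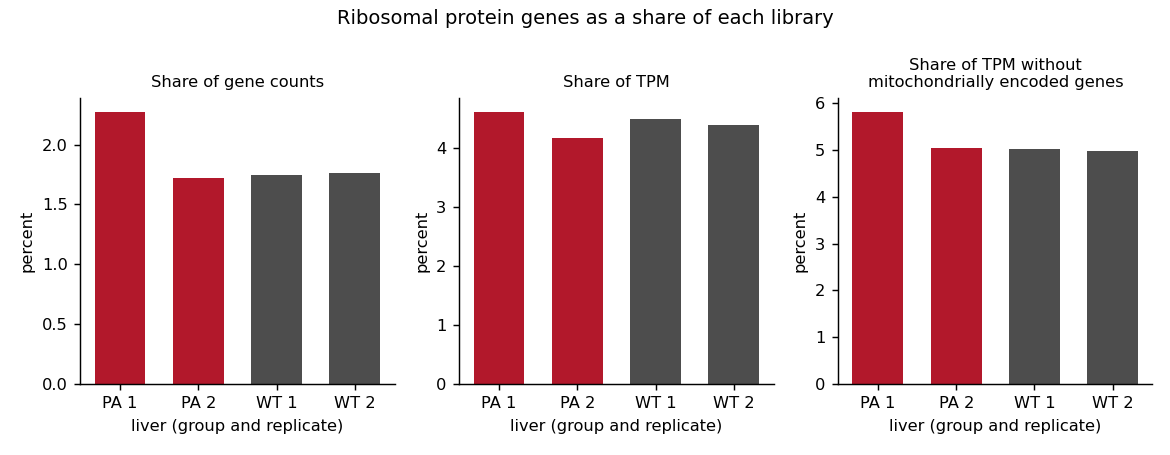
Percent of each library held by the 85 ribosomal protein genes, 1 bar per liver with PA left of WT: share of STAR gene counts (left), of TPM (middle) and of TPM without mitochondrially encoded genes (right). PA replicate 1 is the highest bar in each panel, at 2.28, 4.62 and 5.83%.

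For 4 genes the counts depended on the counting method by 10-fold or more. STAR's gene counts set aside reads that fall on more than 1 gene of the same strand, whereas RSEM shares them between transcripts. Rpl24 had 79 STAR counts over the 4 libraries and 16362 RSEM expected counts, a ratio of 207. Rpl36al had 115 and 20715 (ratio 180), Rps10 had 130 and 10768 (82.8), and Rpl13a had 1124 and 45781 (40.7). All 4 overlap another annotated gene on the same strand: Gm28037 for Rpl24, Gm49383 for Rpl36al, RPS10-NUDT3 for Rps10 and Gm45713 for Rpl13a. Those overlapping genes held 0, 8, 0 and 0 STAR counts in all. Rpl13 and Rpl19 also have such a neighbour. Rpl19 had 2.06 times as many expected counts as STAR counts, but Rpl13, which overlaps Gm20388, had 18597 STAR counts and 20533 expected counts, a ratio of 1.10. For 76 members the ratio lay between 0.67 and 1.5, and its median over the 81 members with at least 100 counts by both was 0.913. The lowest ratios were 0.711 for Rps21, 0.743 for Rps27l, 0.796 for Rps15 and 0.817 for Rpl14.

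Rpl13a, a large-subunit protein that can also leave the ribosome and repress translation of inflammatory mRNAs in human monocytes, turned direction with the method. It had 8.83 and 7.71 CPM by STAR in PA and 12.3 and 11.5 CPM in WT, without overlap (log2 fold change -0.53, SE 0.21, edgeR adjusted p = 0.385). By RSEM it had 14486 and 10208 expected counts in PA and 11764 and 9323 in WT, or 0.32 on the log2 scale (edgeR adjusted p = 0.756). On the TPM scale it was at 1553 and 1144 TPM in PA and 1275 and 1208 TPM in WT, with overlap. The lower STAR value rests on 225 and 229 counts in PA and 377 and 293 in WT, of a transcript to which RSEM gives 45781 in all. Rps10 had a log2 fold change of 0.70 by RSEM, with 3252 and 3290 expected counts in PA and 2294 and 1933 in WT, and 0.23 by STAR. Rpl24 had 0.42 by RSEM and -0.13 by STAR. Over the 82 members the fold changes from RSEM and STAR had a Spearman correlation of 0.91, with 74 members higher in PA by RSEM and 0 called.

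**Figure D5:**
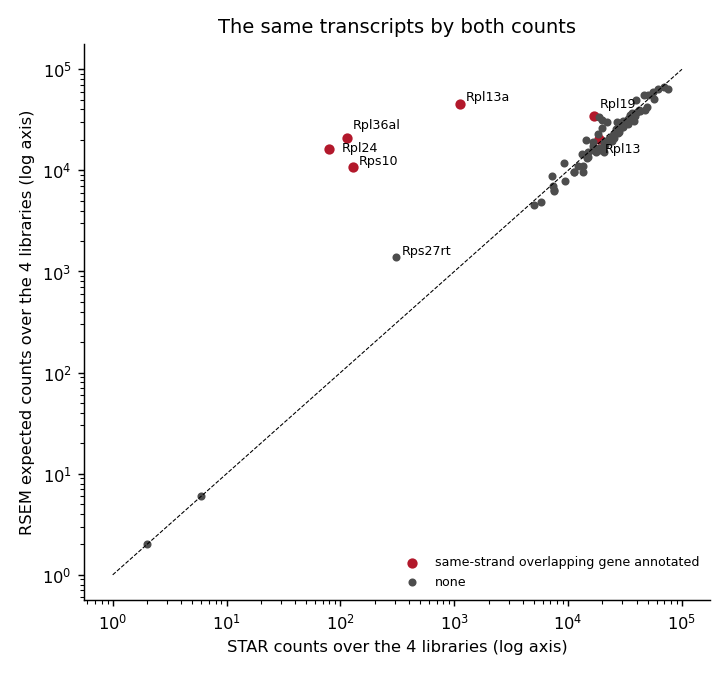
STAR counts (horizontal) and RSEM expected counts (vertical) summed over the 4 libraries for each ribosomal protein gene with a count, both on log axes, with the line of equality dashed. Red points have another gene annotated on the same strand, and Rpl24, Rpl36al, Rps10 and Rpl13a lie 40.7-fold to 207-fold above the line.

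The paralogues of ribosomal proteins were measured beside their partners. Rpl22l1, the paralogue that mouse cells raise when Rpl22 is lost, had 51.6 and 34.1 CPM in PA and 51.8 and 42.2 CPM in WT, with overlap. Rps27l, a p53 target, had 248 and 136 CPM in PA and 180 and 181 CPM in WT, the same order of livers as Rps27. Rps27rt, the retrogene, had 3.49 and 1.99 CPM in PA and 2.15 and 3.61 CPM in WT, and RSEM gave it 4.57 times its STAR counts. Reads of Rps27 and Rps27rt may be exchanged in RSEM's sharing, so its level is uncertain. Rpl7l1 had 78.0 and 92.0 CPM in PA and 86.1 and 77.8 CPM in WT, and Rpl7 did not share its order of livers.

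The paralogues known from other tissues were near the detection limit. Rpl3l, the paralogue of Rpl3 in heart and skeletal muscle, had 1 count in PA replicate 1 and 1 in WT replicate 2. Rpl39l, known from testis, had 0 counts in PA and 2 and 4 counts in WT. Rpl10l, the autosomal retrogene that stands in for Rpl10 in male meiosis, had 0 counts in all 4 libraries. The 4 members on chromosome X all had positive folds that were smaller than their standard errors: Rpl36a with 0.28, Rps4x with 0.24, Rpl10 with 0.17 and Rpl39 with 0.09 on the log2 scale. Rpl36a had 244 and 132 CPM in PA and 153 and 157 CPM in WT, with the WT livers between the PA livers. Its autosomal retrogene Rpl36al is one of the genes that STAR barely counted.

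Besides the 85 genes, 6 protein-coding entries carry a pseudogene symbol and 290 entries are ribosomal protein pseudogenes. Of the pseudogenes, 107 had enough counts to be tested and 0 were called. Together the pseudogenes held 0.0267 and 0.0232% of RSEM expected counts in PA and 0.0226 and 0.0227% in WT. Reads that mapped to several places are not in the STAR counts, and the part of pseudogene copies in the members' values was not tested. Rpl36a-ps1 had a log2 fold change of 0.72 (SE 0.34) and was not called.

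Many ribosomal protein genes carry small nucleolar RNAs in their introns, which guide the modification of rRNA. In the annotation 30 members contain 58 such genes. Of these 30, 29 had higher values in PA, 16 had both PA libraries above both WT libraries, and the median log2 fold change was 0.24. The 52 tested members without one had the same median of 0.24, with 40 higher and 15 with both PA libraries above both WT libraries (28.8%, against 53.3% of the 30 and 21.3% of all genes tested). The 9 non-coding host genes of small nucleolar RNAs had 4 higher values and a median of -0.18, with no call. All 9 were higher in PA replicate 1 than in PA replicate 2, the order also seen in most members. Their median difference from the WT mean, in log2(CPM + 0.5), was 0.25 for PA replicate 1 and -0.53 for PA replicate 2. Snhg3 had 12.3 and 3.60 CPM in PA and 3.0 and 3.69 CPM in WT, where PA replicate 1 alone was high.

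Ribosomal proteins that are named otherwise were listed apart. Fau, made as a fusion of a ubiquitin-like protein with a small-subunit protein, had 248 and 198 CPM in PA and 125 and 122 CPM in WT. The groups did not overlap, and the log2 fold change of 0.85 (SE 0.23, edgeR adjusted p = 0.191) was as large as that of Rpl36. Rack1, the scaffold on the small-subunit head, had 483 and 385 CPM in PA and 360 and 364 CPM in WT.

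The machinery that makes and controls ribosomes was described from lists of related genes, and none of their members was called. Of 38 ribosome assembly factors, 30 had higher values in PA (78.9%, against 50.6% of all genes tested, median log2 fold change 0.15). Both PA libraries were above both WT libraries for 13 (34.2%, against 21.3% of all genes tested) and below both for 3 (7.89%, against 21.9%). Eif6, which keeps new large subunits from joining small ones, had 56.5 and 46.1 CPM in PA and 32.5 and 31.1 CPM in WT (log2 fold change 0.69, edgeR adjusted p = 0.226). Rrp12, a factor for pre-ribosome export, had 4.75 and 8.35 CPM in PA and 3.39 and 3.85 CPM in WT, also without overlap. Of 9 escorts of single ribosomal proteins, 8 had higher values (88.9%, against 50.6%, median 0.23). Rrs1, Ltv1 and Rpf2 are in both of these lists, so the lists are not separate. Rrs1, which loads the 5S ribonucleoprotein, had 13.8 and 9.83 CPM in PA and 5.93 and 8.91 CPM in WT. Tsr2, known from yeast as the escort of Rps26, had 12.0 and 12.1 CPM in PA and 9.42 and 9.58 CPM in WT.

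RNA polymerase I and its factors had 6 higher values of 14 (median log2 fold change -0.04). Polr1a, the largest subunit, had 12.6 and 16.9 CPM in PA and 10.5 and 10.3 CPM in WT. Taf1c, a subunit of the promoter factor SL1, had 1.26 and 1.55 CPM in PA and 0.815 and 0.668 CPM in WT. The translation factors whose mRNAs share the 5′TOP start had 11 higher values of 18, and their median log2 fold change was 0.05. Eef1g had 75.1 and 116 CPM in PA and 70.7 and 71.2 CPM in WT, and Eif4b had 237 and 168 CPM in PA and 250 and 290 CPM in WT.

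Regulators gave no common direction. The list of mTORC1 and 5′TOP mRNA control had 11 higher values of 18 (median log2 fold change 0.03). Ddit4, an inhibitor of mTORC1 induced by stress, had 12.6 and 9.46 CPM in PA and 6.0 and 2.20 CPM in WT, without overlap (log2 fold change 1.42, SE 0.44, edgeR adjusted p = 0.26). Deptor, another inhibitor of mTOR, had 128 and 136 CPM in PA and 154 and 184 CPM in WT. Of 12 genes of p53 and its targets, 6 had higher values. Cdkn1a, the cell cycle inhibitor p21, had 19.9 and 12.1 CPM in PA and 3.59 and 0.825 CPM in WT (log2 fold change 2.83, SE 0.59, edgeR adjusted p = 0.106), and Sesn1 had 16.4 and 13.9 CPM in PA and 24.8 and 26.9 CPM in WT. In the MYC family 4 of 10 tested genes had higher values, and Mxd1 and Mxd4, which oppose MYC at its partner MAX, had log2 fold changes of -0.98 and -0.71. Myc itself, named after its values were seen, had 5.46 and 1.95 CPM in PA and 0.913 and 2.00 CPM in WT. Its log2 fold change was 1.35 (SE 0.57), and only PA replicate 1 stood above the WT livers. Of 12 genes of ribosome quality control 7 had higher values. Pelo, which frees stalled ribosomes, had 2.63 and 2.29 CPM in PA and 1.34 and 1.69 CPM in WT, and its partner Hbs1l had 28.1 and 39.8 CPM in PA and 39.0 and 47.0 CPM in WT.

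Markers of other cells also differed in value between the genotypes. The 11 Kupffer cell genes summed to 353 and 500 CPM in PA and 758 and 671 CPM in WT, with 10 of 11 lower in value and none called. The endothelial genes summed to 242 and 255 CPM in PA and 317 and 292 CPM in WT, with 5 of 8 lower in value. Clec4g and Fcgr2b made up most of that gap, and the median log2 fold change of the list was only -0.05. Clec4g had 77.3 and 69.4 CPM in PA and 115 and 104 CPM in WT. Fcgr2b had 60.8 and 67.1 CPM in PA and 87.7 and 80.9 CPM in WT. The stellate cell genes summed to 470 and 448 CPM in PA and 439 and 449 CPM in WT, most of it from Dcn, with 6 of 8 lower in value. For the cholangiocyte genes the sums were 29.9 and 32.7 CPM in PA and 34.3 and 48.7 CPM in WT, most of it from Spp1. In contrast, 4 of 5 tested genes had higher values. For the plasma cell genes they were 421 and 564 CPM in PA and 640 and 527 CPM in WT, nearly all from Xbp1 and Sdc1. Igkc had only 3.02 and 2.59 CPM in PA and 3.75 and 3.57 CPM in WT. Jchain had 1.92 and 0.942 CPM in PA and 1.37 and 1.22 CPM in WT. The T and NK cell genes were at 2.67 and 3.57 CPM in PA and 4.76 and 4.24 CPM in WT, and the neutrophil genes, 1 of which had no count, at 3.02 and 1.82 CPM in PA and 6.59 and 3.34 CPM in WT. No gene of these lists was called. The B cell genes summed to 4.63 and 6.66 CPM in PA and 16.9 and 14.5 CPM in WT. The erythroid genes summed to 11.9 and 16.8 CPM in PA and 88.5 and 47.5 CPM in WT, where Hbb-bs and Hbb-bt fell (edgeR adjusted p = 0.0256 and 0.0302). All 13 mitochondrially encoded mRNAs had higher values in PA, and mt-Nd6 rose (log2 fold change 1.82, edgeR adjusted p = 0.0222). Both PA libraries were above both WT libraries for 10 of the 13 (76.9%, against 21.3% of all genes tested). For the other 3, PA replicate 2 was below both WT libraries, so their higher values rest on PA replicate 1. In all 13, PA replicate 1 was higher than PA replicate 2. The part of these differences in the levels of ribosomal protein transcripts was not tested.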

How the data were processed

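Liver libraries of 2 PA and 2 WT mice were grouped by their titles. Per the submitters' processing notes, STAR 2.7.6a, RSEM 1.3.3 and GRCm38 were used; the annotation release is not given in the sources used here. The raw counts deposited by the authors are STAR counts of uniquely mapped reads per gene, and the opposite-strand column, holding 96.96 to 97.08% of stranded counts, was used. The 4 lines that name no gene held 34.3 and 28.1% of reads in PA and 29.6 and 31.1% in WT and were left out. Expected counts, TPM and FPKM deposited by the authors come from RSEM per the file headers, and expected counts were rounded. Symbols came from GENCODE M21 (55227 identifiers matched, 260 did not), start sites from RefSeq on GRCm38.p6.

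All genes were fitted together with edgeR 4.0.16 (R 4.3.3; TMM, filterByExpr, prior count 0.125, genotype only, quasi-likelihood test, Benjamini-Hochberg threshold 0.05); SE is the log2 fold change over the square root of F. DESeq2 1.42.0 and limma 3.58.1 (pseudocount 1 on TPM, mean TPM of at least 1) were alternatives. The steps were tested on simulated counts. The members and lists were chosen with earlier results of these data known. Genes named are the 10 of highest mean TPM, the 6 of highest and 6 of lowest fold, paralogue pairs, the 4 highest and 4 lowest RSEM to STAR ratios, the extremes of variation, and the 2 of smallest p in each list; others are said to be named after their values were seen or complete a small count. Of the genes this rule names, some are not reported here. Markers of 10 cell types were also listed. The floor of 3 counts covers counting error only. No pairing of same-numbered PA and WT libraries is named beyond the shared number.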

Additional observations from a re-analysis of the deposited data

How the results depend on the processing

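The count of members called was 0 in each direction under most of the 16 alternatives; the exceptions, all higher in PA, were 2 members (Rpl36 and Rplp2) with no filter on low counts, 1 (Rplp2) with DESeq2 and 0 to 1 (Rpl36, without PA replicate 2) when a library was left out. Members at an unadjusted p under 0.05 numbered 1 on log2(TPM + 1) with limma and 1 to 35 with a library left out. Members of higher value numbered 41 on log2(TPM + 1) and 40 to 79 with a library left out. Their median log2 fold change was -0.0040 on log2(TPM + 1) and ran from -0.027 (without PA replicate 1) to 0.44 with a library left out; its range over the other alternatives was 0.18 to 0.26. Over all genes, 414 were called higher and 488 lower with no filter, 186 and 256 with DESeq2, 13 higher on log2(TPM + 1), and 50 to 239 higher and 105 to 261 lower with a library left out. The cause of these changes was not tested.

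With a replicate block 126 genes were called higher and 192 lower, but 0 members, 8 members were at an unadjusted p under 0.05, and the members' median was 0.23. Deviations of same-numbered libraries correlated at -0.0907 over 14411 genes. With 2 libraries a group, the crossed numbers give the same value with the other sign (0.0907). The correlation therefore cannot decide whether the samples are paired.

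Rpl13a turned to 0.32 with RSEM and 0.10 on log2(TPM + 1), and with a library left out Rps18 ran from -0.10 to 0.68 and Rps29 from -0.057 to 0.60, both lowest without PA replicate 1. The difference in the members' share of gene counts ran from -0.0337 (without PA replicate 1) to 0.523 percentage points, and that in the share of TPM from -0.267 to 0.174 (without PA replicate 2), and it was 0.429 without mitochondrially encoded genes in the total. Of 527 refits of 33 named members, 519 kept direction and call, counting as kept the 48 sign changes in 20 members whose fold was under its standard error. With 2 livers a group, the spread between the PA livers limits which differences the test can detect.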
